A study of Penicillium oxalicum with 6 samples.

Results

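Along the identifier series of the filamentous fungus Penicillium oxalicum, 7 runs of consecutive genes had far lower ribosome footprint levels in a strain without PoxTMA7 than in the wild type, in many of the genes close to 0. The runs span 65 identifier numbers, of which 63 are genes of the tables used here, out of 8909 genes in all; POX_5g06595 and POX_5g07720 were not analysed here. The runs are POX_3g03754 to POX_3g03758, POX_3g04435 to POX_3g04457, POX_3g04697 to POX_3g04708, POX_5g06591 to POX_5g06598, POX_5g06606 to POX_5g06610, POX_5g07715 to POX_5g07721 and POX_7g09526 to POX_7g09530. They were picked because at least 5 neighbouring tested genes were each at least 2-fold lower in the knockout and past the test's threshold in these same libraries. The difference between the strains inside the runs is therefore described here and not tested. The same choice sets the borders, since a neighbouring tested gene of the same prefix that met both bounds would have joined the run.

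The libraries came from mycelia of the PoxTMA7 knockout (n = 3) and of the wild type (n = 3). Both strains were grown for 24 h in liquid medium with 1% glucose and then for 24 h in medium with 1% Avicel, a microcrystalline cellulose. The labels call the libraries of a strain biological replicates, do not say how many knockout transformants were used, and name no strain in which the gene was put back. The genotype field of knockout replicates 2 and 3 reads PoxTMA8 and PoxTMA9, against PoxTMA7 in their titles.

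In ribosome profiling, nuclease destroys the mRNA that no ribosome covers and the protected pieces are sequenced, so a gene's footprint level reflects both how much of its mRNA is present and how many ribosomes that mRNA carries. The yeast protein TMA7 was identified among the proteins that co-purify with ribosomes. In filamentous fungi, genes that act in one pathway, above all those for secondary metabolites and for some nutrient-use pathways, often lie side by side on a chromosome and are expressed together. PoxTMA7 itself could not be looked up, because the identifiers here matched 0 of 9964 locus tags of the RefSeq table for P. oxalicum HP7-1, and what the genes of the runs encode was not analysed here either, so consecutive numbers are read only as an order of identifiers.

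The deposited values are FPKM, footprints scaled by the authors for gene length and library depth. The steps between the FPKM values gave back whole footprints for 7849 of the 7855 genes above 0 in at least 3 libraries, and for 61 of the 63 genes of the runs. The knockout libraries held 1168872, 1297757 and 1451987 recovered footprints and the wild-type libraries 701084, 857614 and 437981, so the strain in which the runs were low was the one sequenced more deeply. Wild-type FPKM totals were 1.047 times the knockout totals on average. They were 1022338, 1021836 and 1024510 FPKM for replicates 1 to 3, against 977662, 978164 and 975491 FPKM in the knockout. By replicate number the totals mirrored each other: where the wild-type total was higher, the knockout total was lower by nearly the same amount. Libraries of one number may thus have been scaled together, which the labels do not state. The length used per gene is not stated by the labels, so FPKM orders genes of a run only roughly. Intervals from footprints cover counting error only, and limits for genes at 0 in the knockout cover that of the knockout count alone.

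Over all 63 genes, the summed level was 341, 349 and 301 FPKM in the knockout libraries, against 16051, 16433 and 15237 FPKM in the wild-type libraries. The genes of the runs thus held 0.0338% ± 0.0026 of all FPKM in the knockout and 1.56% ± 0.062 in the wild type (SD, n = 3 each). The knockout sum was 2.08% of the wild-type sum. No RNA-seq was analysed here, so less mRNA and fewer ribosomes per mRNA cannot be told apart, nor, in bulk mycelium, can fewer cells with these footprints and fewer footprints per cell.

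All but 1 gene of the runs passed the filter of at least 1 FPKM in at least 3 libraries. Of these 62 tested genes, 62 were lower in the knockout at an adjusted p under 0.05 (limma), where 22.2% of the 7703 tested genes were. For 62 the highest knockout value lay below the lowest wild-type value, against 27.8% of tested genes, and 45 were called and at least 16-fold lower on the log2(FPKM + 1) scale, against 1.65%. That scale shrinks the fold of genes with low values, so genes such as POX_3g04700, whose FPKM means differed 45.8-fold, are not among the 45. These counts are fixed by how the runs were chosen and by the filter, which 20 of the 62 genes passed through their wild-type values alone. Their median log2 difference, knockout minus wild type on the log2(FPKM + 1) scale, was -5.92, against -0.05 over all tested genes. On the plot of all tested genes, the members stand above the diagonal at wild-type levels from 8.37 to 2623 FPKM.

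**Figure D1:**
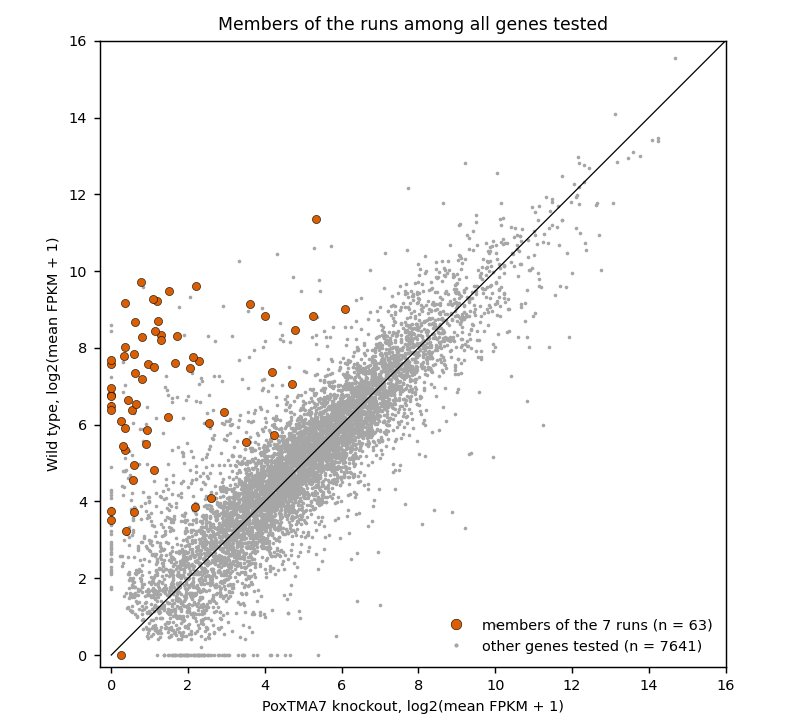
Mean level of each gene in the PoxTMA7 knockout (x axis) and the wild type (y axis), both as log2(mean FPKM + 1), for the 63 genes of the runs (orange) and the other 7641 tested genes (grey); the line marks equal levels. All members but POX_3g04705, at the lower left corner, lie above the line.

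The 7 runs differed in how much footprint signal the knockout kept. In 4 of them every gene with wild-type signal was under 5% of its wild-type mean, and in the other 3, which start at POX_3g03754, POX_5g06591 and POX_7g09526, some genes kept 5% or more. By knockout sum over wild-type sum the order was 0.36% for the run from POX_3g04435, 0.60% from POX_5g06606, 0.92% from POX_3g04697, 2.08% from POX_5g07715, 4.06% from POX_5g06591, 6.45% from POX_7g09526 and 7.59% from POX_3g03754. The share of single knockout libraries overlapped between the runs at 0.36% and 0.60%, between those at 0.60% and 0.92%, and between those at 6.45% and 7.59%. The runs at 4.06% and 6.45% lay within their summed SDs over the knockout libraries, 0.77 and 1.66 percentage points. The order also depended on the weight of the genes: as a median over genes the share was 1.61% from POX_7g09526, below 8.25% from POX_5g06591 and 8.26% from POX_3g03754, and 0.47% from POX_3g04697, below 0.73% from POX_5g06606. In the plot of summed levels the strains are at least an order of magnitude apart in every run.

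**Figure D2:**
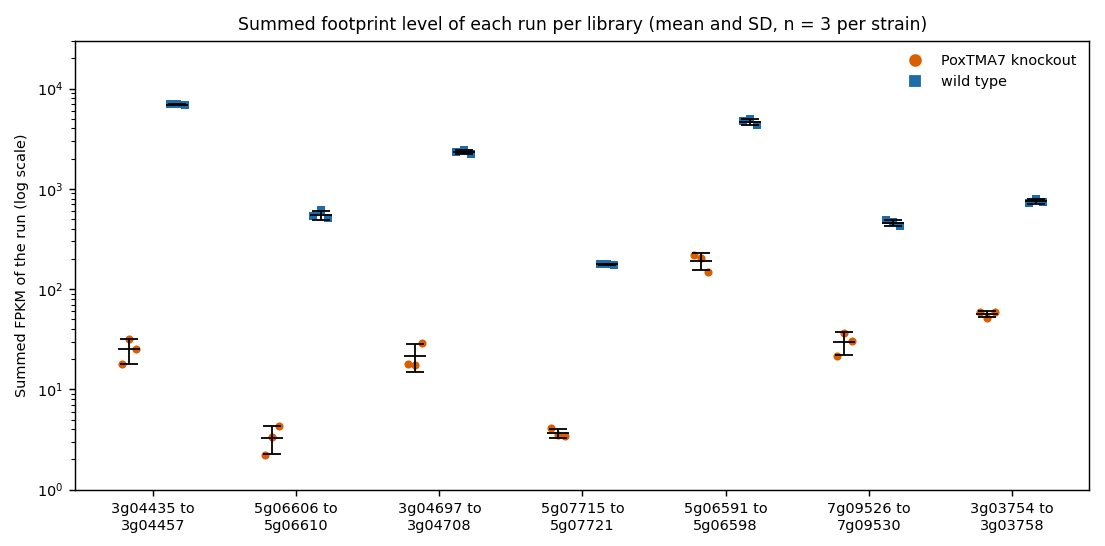
Summed FPKM of each run per library on a log axis, PoxTMA7 knockout (orange circles) left of wild type (blue squares), with mean and SD (n = 3 per strain) in black; runs are ordered by the share left in the knockout. Knockout sums range from 2.23 to 218 FPKM and wild-type sums from 174 to 7024 FPKM, with no overlap in any run.

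Knockout sums varied more between libraries, for their size, than wild-type sums. In the knockout the SD was 6.93 FPKM on a mean of 25.0 FPKM in the run from POX_3g04435 and 1.04 FPKM on a mean of 3.29 FPKM in the run from POX_5g06606. Those sums rest on only 22, 42 and 40 footprints and on 5, 11 and 10 footprints in the knockout libraries. Counts this low carry a large counting error, and whether the strains differ in spread beyond it was not tested. Wild-type sums had a CV of 1.56% to 10.2% over the 7 runs, and wild-type replicate 3, the shallowest library, was the lowest in 6 of them. Among the knockout libraries no replicate was low throughout: replicate 1 was lowest in 3 runs, replicate 2 in 2 and replicate 3 in 2.

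The longest run, POX_3g04435 to POX_3g04457, has 23 genes with no number skipped. Its sum was 18.1, 31.9 and 25.1 FPKM in the knockout libraries, against 7024, 6966 and 6814 FPKM in the wild-type libraries. In footprints this was 22, 42 and 40 in the knockout and 4743, 5760 and 2885 in the wild type, a depth-corrected wild-type over knockout ratio of 265 (95% exact counting interval 219 to 325). The loss covered the whole run: 20 of the 23 genes were below 1% of their wild-type mean and the other 3 were between 1% and 5%.

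Both ends of this run were close to 0 in the knockout. Its first gene, POX_3g04435, had 0, 0 and 0.86 FPKM in the knockout, against 265, 265 and 242 FPKM in the wild type. The last gene, POX_3g04457, had 1.64, 5.91 and 3.95 FPKM in the knockout, against 181, 224 and 197 FPKM in the wild type, and at 1.91% kept the largest share of the run. The gene just before the run, POX_3g04434, was listed at 0, 0 and 1.93 FPKM in the knockout and at 0 in all wild-type libraries, so it gives no border. One identifier further out, POX_3g04433 had 52.3, 50.5 and 54.7 FPKM in the knockout, against 55.5, 57.4 and 70.5 FPKM in the wild type. POX_3g04432 had 10.1, 11.9 and 13.7 FPKM in the knockout, against 71.8, 62.0 and 67.1 FPKM in the wild type, so a lower gene lies outside the run with a near-level one between.

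On the other side the next identifier in the tables, POX_3g04460, had 1.00, 0 and 0.80 FPKM in the knockout and 0 in all wild-type libraries. POX_3g04461 overlapped between the strains, with 8.94, 14.4 and 11.8 FPKM in the knockout and 19.0, 14.6 and 14.3 FPKM in the wild type. POX_3g04462 was lower without overlap, at 6.74, 12.2 and 8.65 FPKM in the knockout and 30.6, 17.3 and 30.1 FPKM in the wild type. The knockout kept 35.3% of the wild-type mean there, against 1.91% in the last gene of the run.

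The genes with the highest wild-type FPKM in this run were POX_3g04443, POX_3g04440 and POX_3g04452. POX_3g04440 had 3.82, 1.72 and 0 FPKM in the knockout, against 695, 761 and 681 FPKM in the wild type, from 6 and 1228 footprints. POX_3g04452 had 0, 2.62 and 0.78 FPKM in the knockout, against 669, 617 and 568 FPKM in the wild type, from 4 and 1051 footprints. POX_3g04443 averaged 0.70 ± 0.73 FPKM in the knockout and 842 ± 30.1 FPKM in the wild type (SD, n = 3 each), from 3 and 1676 footprints. These genes, well measured in the wild type but with few knockout footprints, held 0.08% to 0.26% of their wild-type means.

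Another 3 genes of the run were listed at 0 in all knockout libraries. POX_3g04442 had 113, 97.0 and 113 FPKM in the wild type, POX_3g04446 had 123, 118 and 128 FPKM, and POX_3g04451 had 203, 179 and 188 FPKM. With 3 footprints over the knockout libraries as the limit that a count of 0 allows, they were at least 117-fold, 157-fold and 211-fold lower in the knockout. The remaining 15 genes had at most 3.93 FPKM in any knockout library and at least 26.1 FPKM in every wild-type library, and kept 0.11% to 1.77%. Wild-type means varied 28.2-fold along the run while no knockout mean exceeded 3.83 FPKM. Across the 23 genes the 2 means had a Spearman rho of 0.44, a description over genes that share the same libraries.

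**Figure D3:**
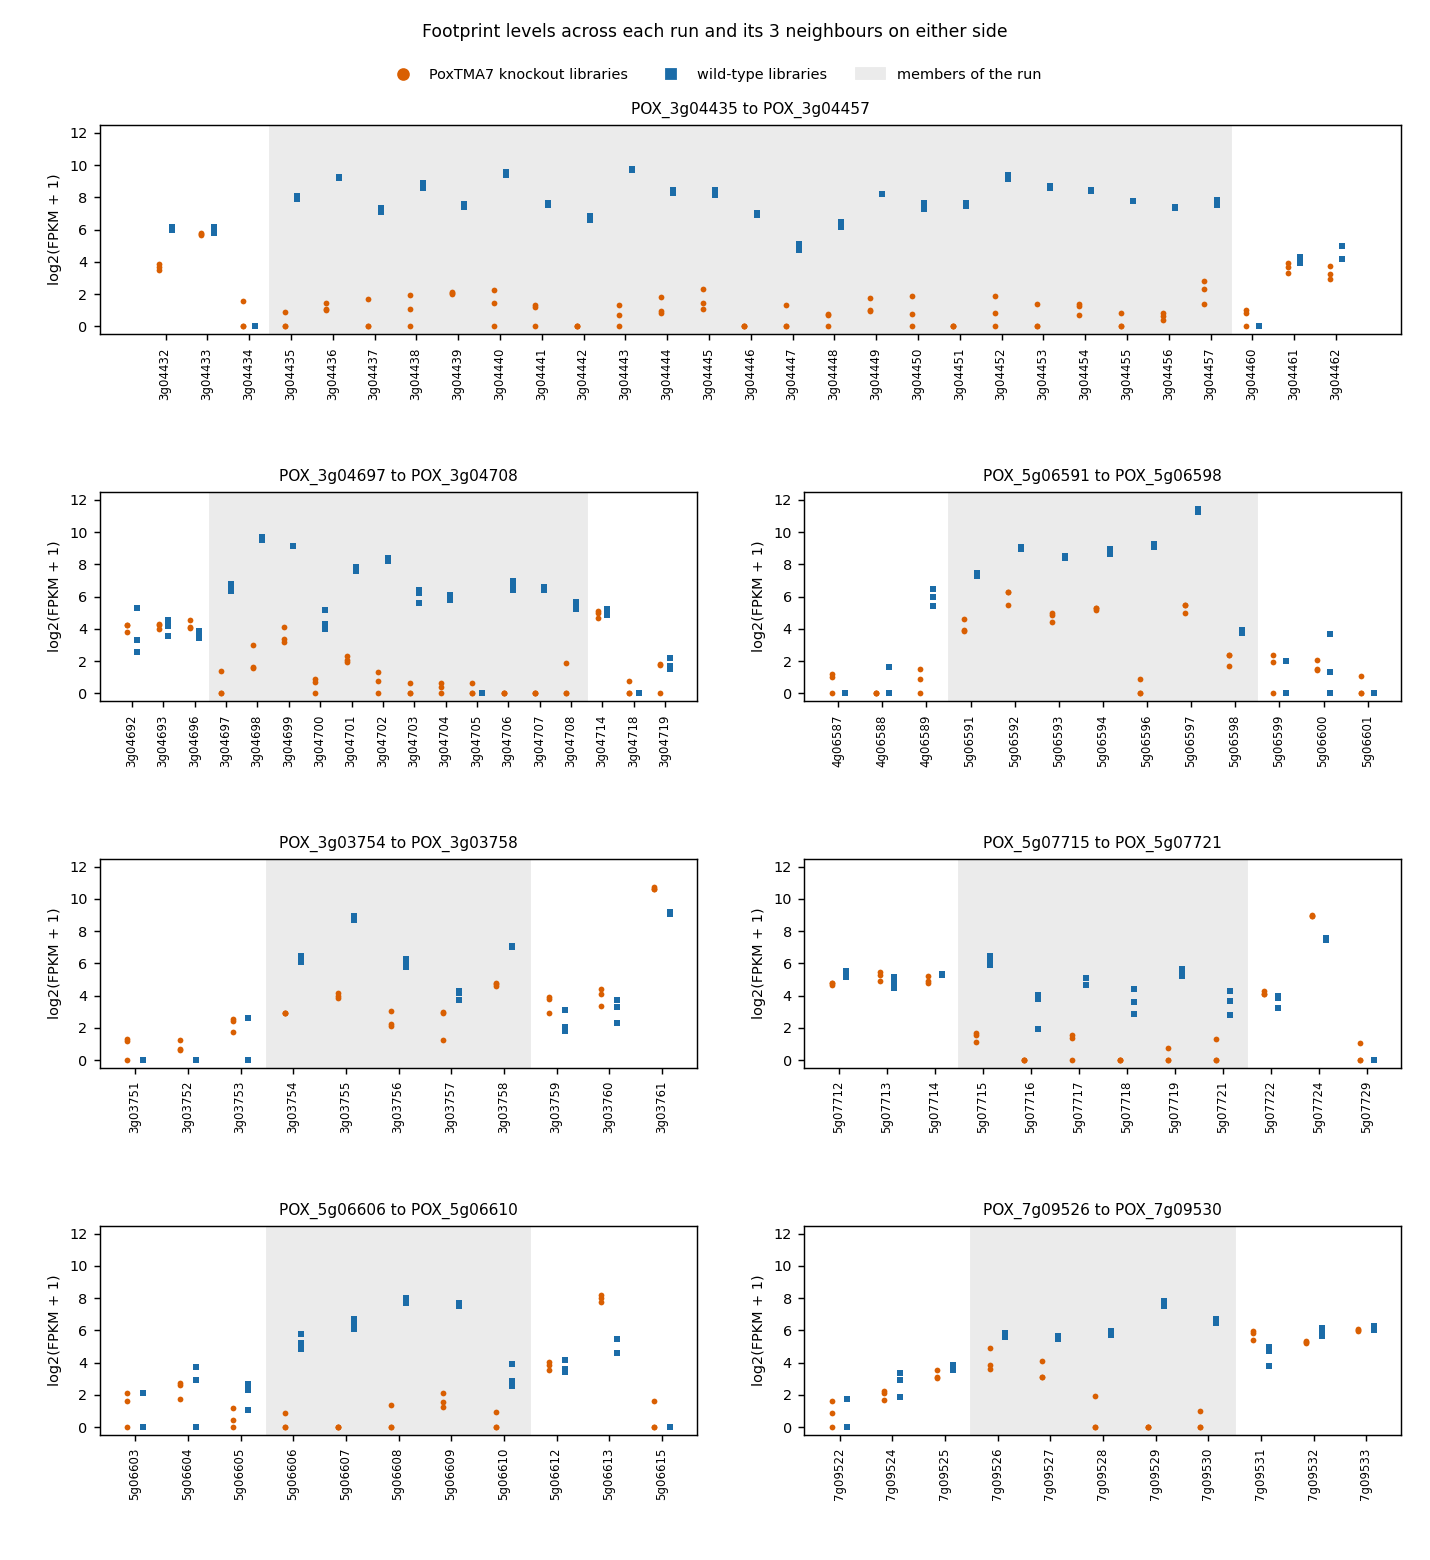
Footprint level, log2(FPKM + 1), of every gene of the 7 runs (grey background) and of the 3 identifiers before and after each, in identifier order, with 1 point per library: PoxTMA7 knockout (orange circles) left of wild type (blue squares). Knockout points drop to between 0 and 5.91 FPKM throughout POX_3g04435 to POX_3g04457, while in POX_3g03754 to POX_3g03758 they stay between 1.38 and 27.0 FPKM.

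The run POX_3g04697 to POX_3g04708 has 12 genes, and its sum was 17.8, 17.6 and 29.3 FPKM in the knockout libraries, against 2333, 2467 and 2246 FPKM in the wild-type libraries. Its 82 knockout footprints stand against 4363 in the wild type, a depth-corrected wild-type over knockout ratio of 110 (95% exact counting interval 88.1 to 138). Of its genes 7 were below 1% of the wild-type mean and 4 were between 1% and 5%. The remaining one, POX_3g04705, had 0, 0 and 0.58 FPKM in the knockout and 0 in all wild-type libraries. It did not pass the filter, and with no wild-type signal it could not be lower.

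POX_3g04699 held 51.9% of all FPKM left in the knockout in this run, with 9.14, 8.25 and 16.2 FPKM, against 569, 566 and 552 FPKM in the wild type. Its neighbour POX_3g04698 had 2.13, 1.92 and 6.84 FPKM in the knockout, against 784, 817 and 742 FPKM in the wild type. Knockout replicate 3 was the highest of the knockout libraries in both. POX_3g04702 had 0, 1.52 and 0.68 FPKM in the knockout, against 294, 338 and 298 FPKM in the wild type, and kept 0.24%.

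Near the far end, POX_3g04706 and POX_3g04707 were at 0 in all knockout libraries. Wild-type values were 110, 123 and 85.3 FPKM for POX_3g04706 and 82.7, 96.1 and 85.9 FPKM for POX_3g04707, which puts them at least 133-fold and 120-fold lower in the knockout. POX_3g04700 kept the largest share, 2.18%, with 0.82, 0 and 0.66 FPKM in the knockout and 34.3, 15.2 and 18.3 FPKM in the wild type. That share rests on 2 knockout footprints against 45, with a counting interval of 12.1 to 394 for the wild-type over knockout ratio. The genes POX_3g04701, POX_3g04703 and POX_3g04704 had at most 4.04 FPKM in a knockout library and at least 47.3 FPKM in a wild-type library, and kept 0.29% to 1.58%.

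The tested genes next to this run differed by less than 2-fold between the strains, where the choice of the runs left no room for a called 2-fold fall. POX_3g04696, just before it, had 22.3, 15.5 and 16.5 FPKM in the knockout, against 13.5, 9.80 and 11.98 FPKM in the wild type, with no overlap but a difference under 2-fold. The first gene inside, POX_3g04697, had 1.65, 0 and 0 FPKM in the knockout, against 91.0, 107 and 78.5 FPKM in the wild type. At the far end POX_3g04708 had 0, 2.65 and 0 FPKM in the knockout, against 35.9, 49.0 and 46.5 FPKM in the wild type. The next identifier in the tables, POX_3g04714, overlapped between the strains at 34.0, 30.2 and 24.7 FPKM in the knockout and 35.9, 28.6 and 28.7 FPKM in the wild type. POX_3g04693 and POX_3g04692 before the run and POX_3g04719 after it also overlapped, and POX_3g04718 was at 0 in the wild type. Of the 20 numbers after the run, 4 are genes of the tables, against 83.7% of all numbers up to the highest.

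The run POX_5g06591 to POX_5g06598 opens the identifiers that carry the prefix 5g, with 0 of the 1098 before it. Its 7 genes summed to 218, 204 and 150 FPKM in the knockout libraries, against 4787, 4945 and 4334 FPKM in the wild-type libraries. Inside it the share left was uneven, with 1 gene nearly at 0, 1 at 1.496% and 5 at 7.54% or more.

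POX_5g06597, the gene with the highest wild-type FPKM of all the runs, had 42.8, 44.4 and 30.6 FPKM in the knockout, against 2707, 2766 and 2398 FPKM in the wild type. It made up 55.9% of the run's wild-type sum, so the share of the run, 4.06%, leans on it: without this gene the share was 7.33%. From 164 and 5470 footprints, its wild-type over knockout ratio was 68.7 (95% exact counting interval 58.8 to 80.7). POX_5g06596 next to it averaged 0.29 ± 0.50 FPKM in the knockout and 574 ± 40.5 FPKM in the wild type (SD, n = 3 each). At 0.05% its share was the lowest of any gene of the runs with a knockout footprint. That share rests on 1 knockout footprint against 886, with a counting interval of 327 to 72163 for the wild-type over knockout ratio. The interval overlaps that of POX_3g04443, 393 to 5586, so the rank is not settled.

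The 4 genes that lead the run behaved alike and kept far more. POX_5g06592 had 78.4, 78.1 and 43.9 FPKM in the knockout, against 524, 528 and 484 FPKM in the wild type, and POX_5g06594 had 38.7, 37.9 and 35.1 FPKM in the knockout, against 467, 492 and 395 FPKM in the wild type. POX_5g06593 had 30.4, 28.1 and 20.6 FPKM in the knockout, against 358, 351 and 340 FPKM in the wild type. POX_5g06591 had 23.5, 13.6 and 14.3 FPKM in the knockout, against 153, 178 and 166 FPKM in the wild type. These 4 kept 7.54% to 13.0%, from 112 to 269 knockout footprints in 3 of them and 60 in POX_5g06591, so the signal left is far above 3 footprints.

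POX_5g06598 closes the run at 4.30, 2.21 and 4.14 FPKM in the knockout, against 12.45, 13.9 and 14.1 FPKM in the wild type. It kept 26.4% and is among the least reduced genes of the runs. The identifier in the tables that precedes the run, POX_4g06589 under the prefix 4g, had 0, 1.83 and 0.82 FPKM in the knockout, against 89.0, 40.7 and 62.6 FPKM in the wild type. It kept 1.38%, less than 6 of the 7 genes of the run. POX_4g06588 and POX_4g06587 before it were at or below 2.13 FPKM in every library.

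Between this run and the next, 6 identifiers from POX_5g06599 to POX_5g06605 had at most 5.73 FPKM in any knockout library and at most 12.3 FPKM in any wild-type library. The strains overlapped in every one of these genes. POX_5g06605, next to the second run, had 0, 0.35 and 1.23 FPKM in the knockout, against 5.37, 3.84 and 1.07 FPKM in the wild type. It kept 15.4%, from 5 knockout footprints against 16, a depth-corrected wild-type over knockout ratio of 6.59 (95% exact counting interval 2.31 to 23.0). The other 5 had at most 15 knockout and 13 wild-type footprints each where footprints were recovered.

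The run POX_5g06606 to POX_5g06610 has 5 genes and sums of 2.23, 3.33 and 4.31 FPKM in the knockout libraries, against 530, 614 and 507 FPKM in the wild-type libraries. The 26 knockout footprints against 1546 gave a depth-corrected wild-type over knockout ratio of 122 (95% exact counting interval 83.3 to 188). POX_5g06608 had 0, 0 and 1.56 FPKM in the knockout, against 204, 258 and 221 FPKM in the wild type. POX_5g06609 had 1.34, 3.33 and 1.89 FPKM in the knockout, against 189, 208 and 179 FPKM in the wild type. It held 66.5% of the FPKM left in the run and was the only gene of the run above 0 in all knockout libraries.

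POX_5g06607 was at 0 in all knockout libraries, with 102, 80.6 and 65.9 FPKM in the wild type, and was thus at least 92.7-fold lower in the knockout. The end genes had less signal. POX_5g06606 had 0, 0 and 0.86 FPKM in the knockout, against 28.2, 53.8 and 36.1 FPKM in the wild type. POX_5g06610 had 0.89, 0 and 0 FPKM in the knockout, against 6.2, 14.0 and 4.96 FPKM in the wild type, from 1 footprint against 17. Beyond the run POX_5g06612 overlapped, at 13.2, 15.1 and 10.6 FPKM in the knockout and 16.98, 11.4 and 9.87 FPKM in the wild type. The gene after it was changed the other way: POX_5g06613 had 260, 298 and 217 FPKM in the knockout, against 43.3, 43.3 and 23.1 FPKM in the wild type, 7.07-fold higher in the knockout. POX_5g06615 was at 0 in the wild type.

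The run POX_5g07715 to POX_5g07721 has 6 genes and the lowest signal of all in the wild type, with sums of 4.13, 3.48 and 3.44 FPKM in the knockout libraries, against 179, 178 and 174 FPKM in the wild-type libraries. Only 15 knockout footprints against 352 stand behind it, and the wild-type over knockout ratio of 48.3 has a counting interval of 28.9 to 87.3. POX_5g07715, at its start, had 2.17, 1.96 and 1.16 FPKM in the knockout, against 70.9, 87.0 and 58.7 FPKM in the wild type. POX_5g07719 had 0, 0 and 0.70 FPKM in the knockout, against 36.4, 42.2 and 48.5 FPKM in the wild type, and POX_5g07717 had 1.96, 0 and 1.58 FPKM in the knockout, against 32.6, 23.9 and 24.7 FPKM in the wild type. The other 3 genes were thinly measured.

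POX_5g07716 and POX_5g07718 were at 0 in all knockout libraries. Wild-type values were 15.8, 12.9 and 2.81 FPKM for POX_5g07716 and 10.97, 6.41 and 20.0 FPKM for POX_5g07718. The limit is thus only about 13.0-fold and 13.7-fold lower in the knockout, and it leaves out the counting error of 19 and 20 wild-type footprints. POX_5g07721 had 0, 1.52 and 0 FPKM in the knockout, against 11.8, 6.01 and 18.8 FPKM in the wild type. The genes next to the run on both sides differed by less than 2-fold. POX_5g07714 had 27.0, 36.1 and 29.5 FPKM in the knockout, against 40.04, 38.6 and 38.9 FPKM in the wild type, and POX_5g07722 had 18.5, 16.2 and 16.1 FPKM in the knockout, against 8.30, 13.6 and 14.7 FPKM in the wild type. POX_5g07713 overlapped and POX_5g07712 kept 68.2%, while POX_5g07724 after the run had 520, 489 and 481 FPKM in the knockout, against 189, 172 and 180 FPKM in the wild type. POX_5g07729 was at 0 in the wild type. With 77 identifiers of the prefix 5g after it, the run lies near the end of that series, and 8 of the 20 numbers that follow are genes of the tables.

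In the run POX_7g09526 to POX_7g09530 the share left differed between its ends. Sums were 21.5, 36.7 and 30.6 FPKM in the knockout libraries, against 485, 468 and 424 FPKM in the wild-type libraries. POX_7g09526, the first gene, had 11.1, 29.1 and 13.4 FPKM in the knockout, against 46.7, 54.1 and 56.1 FPKM in the wild type. At 34.2% it kept the largest share of any gene of the runs, with knockout replicate 2 more than 2 times as high as the other knockout libraries. POX_7g09527 had 7.65, 7.53 and 16.2 FPKM in the knockout, against 46.2, 43.8 and 48.6 FPKM in the wild type, a share of 22.6%.

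The last 3 genes kept at most 1.61%, and without POX_7g09529, the highest in the wild type, the run kept 11.7%. POX_7g09528 had 2.74, 0 and 0 FPKM in the knockout, against 60.7, 58.8 and 51.1 FPKM in the wild type. POX_7g09529 was at 0 in all knockout libraries, against 226, 211 and 179 FPKM in the wild type, at least 269.8-fold lower in the knockout. This limit was the highest among the 9 genes of the runs at 0 in the knockout. Such limits rise with the wild-type count, here 393 footprints, so their order does not rank the losses. POX_7g09530 had 0, 0 and 1.03 FPKM in the knockout, against 105, 101 and 88.4 FPKM in the wild type. The gene after it, POX_7g09531, had 60.4, 55.9 and 41.6 FPKM in the knockout, against 29.8, 25.5 and 13.0 FPKM in the wild type. Before the run, POX_7g09525 kept 70.1% and POX_7g09524 overlapped between the strains. POX_7g09532 and POX_7g09533 kept 62.1% and 94.96%, and POX_7g09522 overlapped.

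The run POX_3g03754 to POX_3g03758 kept the most. It begins after 4 identifiers of the prefix 3g, and its sums were 59.4, 52.1 and 59.1 FPKM in the knockout libraries, against 715, 795 and 739 FPKM in the wild-type libraries. No gene of it was at 0 in a knockout library. POX_3g03755 had 16.6, 13.7 and 15.1 FPKM in the knockout, against 412, 487 and 469 FPKM in the wild type, and made up 60.8% of the run's wild-type sum. It kept 3.32%, and the run without it 14.2%.

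The remaining genes of that run kept larger shares. POX_3g03754 had 6.66, 6.67 and 6.53 FPKM in the knockout, against 85.4, 86.8 and 68.3 FPKM in the wild type, and POX_3g03756 had 3.72, 3.35 and 7.46 FPKM in the knockout, against 65.0, 75.8 and 54.6 FPKM in the wild type. POX_3g03757 had 6.90, 1.38 and 6.77 FPKM in the knockout, against 18.8, 12.1 and 17.2 FPKM in the wild type, a share of 31.4%. POX_3g03758 had 25.5, 27.0 and 23.3 FPKM in the knockout, against 134, 133 and 130 FPKM in the wild type, a share of 19.1% from 96 and 246 footprints. The level in POX_3g03758 differed little between libraries of a strain, with an SD of 1.85 FPKM in the knockout and 1.88 FPKM in the wild type.

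Around this run the neighbours were higher in the knockout or overlapped. POX_3g03753 had 4.92, 4.43 and 2.37 FPKM in the knockout, against 5.16, 0 and 0 FPKM in the wild type, and POX_3g03752 and POX_3g03751 were at 0 in the wild type. POX_3g03759 had 12.6, 13.8 and 6.52 FPKM in the knockout, against 3.16, 7.74 and 2.52 FPKM in the wild type, which overlap, as do the values of POX_3g03760. POX_3g03761 had 1594, 1603 and 1675 FPKM in the knockout, against 568, 545 and 579 FPKM in the wild type, 2.88-fold higher in the knockout.

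**Figure D4:**
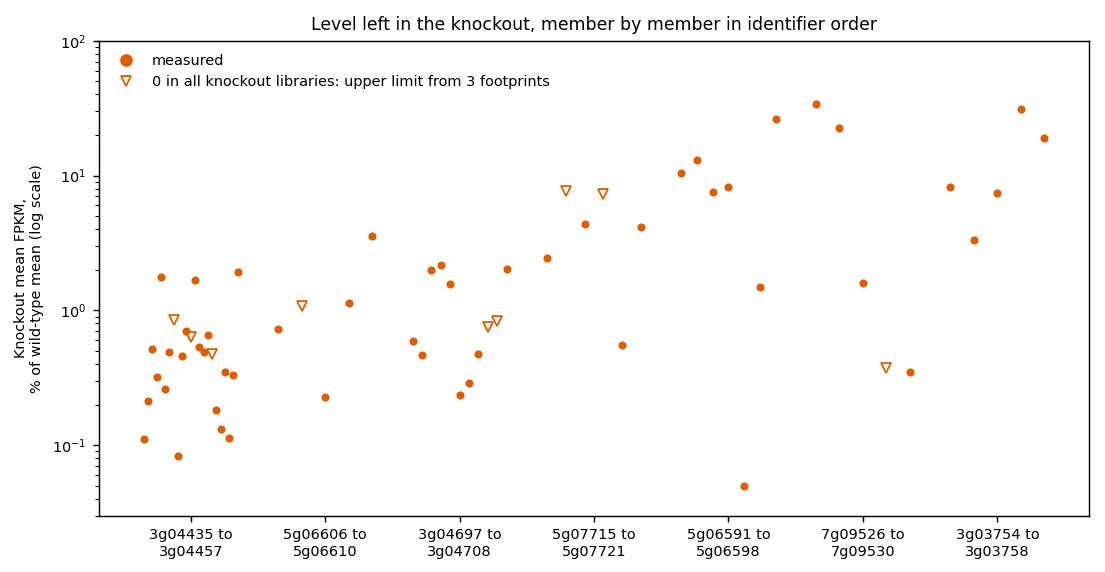
Knockout mean FPKM as a percent of the wild-type mean (log axis) for each gene of the runs with wild-type signal, in identifier order within a run; open triangles are the upper limits that 3 footprints over the knockout libraries allow for the 9 genes at 0 there. The runs from POX_3g04435, POX_5g06606, POX_3g04697 and POX_5g07715 stay below 5% apart from 2 such limits, whereas the other 3 hold genes at 5% to 34.2%.

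Read over all runs, 36 genes kept under 1% of their wild-type mean, 15 kept 1% to 5% and 11 kept 5% or more. Those 11 lay in 3 runs, 4 of them from POX_3g03754, 5 from POX_5g06591 and 2 from POX_7g09526. Of the 61 genes with recovered footprints, 9 had none in the knockout, 21 had 1 to 3 and 31 had more, so for the 9 and the 21 counting error limits how closely the size of the loss is known. The genes nearest the 2-fold bound of the choice were POX_7g09526, POX_3g03757 and POX_5g06598, with log2 differences of -1.61, -1.67 and -1.70. Just outside, the identifiers next to the runs that passed the filter had log2 differences between -5.17 in POX_4g06589 and 1.38 in POX_3g03753.

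Of the 42 flanking identifiers, 3 on each side of every run, 31 passed the filter. On the log2(FPKM + 1) scale 4 of these were at least 2-fold lower in the knockout, 6 at least 2-fold higher and 21 within 2-fold. Of all 7703 tested genes, 12.2% were at least 2-fold lower and also past the threshold. POX_5g06605, among the 4, was not past it (adjusted p 0.0979, limma). The choice of the runs also kept called 2-fold falls of the same prefix out of the places next to them. The count of lower neighbours and the 12.2% are therefore unlike measures, and nothing is read from setting them side by side. The share of all genes at least 2-fold higher was not computed. Values of both strains overlapped in POX_5g06605 among the 4 lower neighbours and in POX_3g03753 and POX_3g03759 among the 6 higher ones. Low signal limits the borders: 18 of the 42 flanking identifiers had a wild-type mean under 5 FPKM, 9 of them at 0 in all wild-type libraries.

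Genes as strongly reduced also occurred elsewhere in the identifier series. Outside the runs, 82 genes were at least 16-fold lower in the knockout on the log2(FPKM + 1) scale, with a median mean of 1.99 FPKM in the knockout and 129 FPKM in the wild type. The 45 genes of the runs past the same bound on that scale had medians of 0.73 FPKM in the knockout and 192 FPKM in the wild type. Listed at 0 in all knockout libraries and above 0 in all wild-type libraries were 40 genes, 9 of them in the runs. With a wild-type mean of at least 100 FPKM there were 8 such genes, of which 5 belonged to the runs: POX_3g04442, POX_3g04446, POX_3g04451, POX_3g04706 and POX_7g09529. The highest wild-type mean among the other 3 was 387.7 FPKM. For scale, the runs hold 63 of the 8909 genes, and 37 genes of the runs had a wild-type mean of at least 100 FPKM. How many of all genes reach that level was not computed. Genes of the runs were chosen for being low in the knockout in these libraries, so these counts are no test of where such genes lie.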

How the data were processed

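Footprint levels were measured in 6 libraries, 3 of the PoxTMA7 knockout and 3 of the wild type, grouped by their titles. The FPKM values were deposited by the authors, 1 table per library, with the unit per the file headers. STAR 2.7, Bowtie, cutadapt and DESeq2 appear in the submitters' processing notes, which give neither the role nor the order of each. Per the labels' protocols, RNase I digested the lysates and fragments of 26 to 34 nucleotides were kept. The genome build, annotation, counting program and scaling: not given in the sources used here.

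Whole footprints were recovered from the steps between FPKM values (Python 3.11.15, numpy 2.4.6); 99.92% of the 7855 genes above 0 in at least 3 libraries came out within 0.2 of whole numbers in every library. The background of called genes came from limma 3.58.1 (R 4.3.3) with a mean-variance trend on log2(FPKM + 1), two-sided, Benjamini-Hochberg adjusted over 7703 genes with at least 1 FPKM in at least 3 libraries. That scale understates changes of genes with low values. The p-values cover only the spread between these libraries. Fold limits set 3 footprints over the knockout libraries against the wild-type count taken as exact, and carry no confidence level. Recovery and fit were tested on simulated data. The changed genes there had smaller folds and more knockout footprints than most genes of the runs, so the fit was not tested at losses this large.

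The genes and comparisons were chosen with earlier results of these data known. Named were the first, last, 3 highest, least and most reduced genes of each run, those with a knockout mean of at least 10 FPKM, untested genes and 3 neighbours per side. Other genes of the runs named beyond these were chosen after their values were seen. Alternatives changed the scaling, pseudocount, filter, replicate block, libraries and unit. No sequence is printed, as none could be matched to the identifiers.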

Additional observations from a re-analysis of the deposited data

How the results depend on the processing

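The fit called 2996 genes, and 2430 to 2958 when 1 replicate was left out (2354 to 3002 with the filter at 2 libraries). It called 62 genes of the runs lower, and limma-voom on recovered footprints 61 of the 61 it tested, among 3175 called genes. Leaving out 1 replicate gave 41 to 62. Without any 1 wild-type replicate the filter of 3 libraries tested 42 of them, and 41 were called without wild-type replicate 1. With the filter at 2 libraries, chosen after seeing the data, it was 61 or 62. With the replicate block 3134 genes and 62 of the runs were called. Knockout and wild-type libraries of one number deviated from their strain means with correlations of 0.024, 0.009 and 0.074 over 6000 genes, all under 0.1. They were therefore treated as unpaired in the main fit. These correlations do not show whether libraries of one number were scaled together, as their mirrored FPKM totals leave possible. Upper-quartile scaling moved the median log2 difference of tested genes from -0.05 to 0.06.

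The shares of the runs moved as follows. As a median over genes, the share was 8.26% from POX_3g03754, 0.47% from POX_3g04697, 8.25% from POX_5g06591, 1.497% from POX_5g07715 and 1.61% from POX_7g09526. Without the gene highest in the wild type it was 14.2% from POX_3g03754, 7.33% from POX_5g06591, 0.86% from POX_5g06606, 1.83% from POX_5g07715 and 11.7% from POX_7g09526. Footprints over the library total gave 0.86% from POX_5g06606, and upper-quartile scaling 8.24% from POX_3g03754. Knockout replicate 1 alone, whose genotype field names PoxTMA7 and which was chosen after seeing the data, gave 0.26% from POX_3g04435, 0.41% from POX_5g06606, 2.34% from POX_5g07715 and 4.69% from POX_7g09526. Leaving out 1 replicate gave 7.42% to 7.91% from POX_3g03754, 0.31% to 0.41% from POX_3g04435, 0.75% to 1.00% from POX_3g04697, 3.77% to 4.503% from POX_5g06591, 0.51% to 0.69% from POX_5g06606, 1.96% to 2.15% from POX_5g07715 and 5.68% to 7.33% from POX_7g09526. DESeq2 was not run, since the files hold FPKM.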
